A study of Mus musculus with 48 samples.

Results

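Cholesterol synthesis in the liver was followed here through 28 genes: 18 enzymes that lead from acetyl-CoA to cholesterol, 6 genes that control the transcription factor SREBP2, 2 genes of sterol transport and 2 genes of the isoprenoid branch. The list was fixed by name, with earlier results of these data known. Each gene was read at its brightest probe among the probes of that gene name. Of the 28 genes, 26 had a probe that passed the filter on dim signal, among 22029 gene names tested in all. *Acat2*, the cytosolic thiolase of the first step, was not analysed here for lack of a probe by that name. *Npc1l1*, the sterol uptake protein, had 1 probe, which was well above background on 0 of the 8 arrays of each group and has only a bound; the group medians of its log2 intensity before normalisation lay between 4.99 and 5.29.

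The livers came from male C57BL/6J mice of 3 genotypes, each fed a control diet (CTRL) or a high-fat diet (HFD), with 8 mice and 8 one-colour arrays in each of the 6 groups. WT mice carried an intact *Pparα* gene. *Pparα* hep-/- mice, labelled LKO, carried floxed *Pparα* alleles and a Cre recombinase driven by the albumin promoter, which removes an exon of *Pparα* in hepatocytes and leaves the gene in the other cells of the liver and of the body. *Pparα*-/- mice, labelled KO, lacked *Pparα* in every tissue from the germline on. All mice were housed at thermoneutrality, were killed in the fed state and were 20 weeks old by the labels, which give 12 weeks of diet; the study's text gives a shorter time. The mutant lines were bred locally and WT mice were bought, so genotype and colony cannot be told apart. In whole liver, fewer cells of a type and less RNA per cell cannot be told apart.

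Cholesterol is made in the endoplasmic reticulum and cytosol from acetyl-CoA through mevalonate, farnesyl diphosphate, squalene and lanosterol. SREBP2, encoded by *Srebf2*, is the transcription factor best known for switching these enzymes on together. It is made as a membrane protein, is carried to the Golgi by the escort protein SCAP when sterols are scarce, is cut there by the proteases encoded by *Mbtps1* and *Mbtps2*, and is held back by the INSIG proteins when sterols are plentiful. PPARα is the nuclear receptor that drives fatty acid oxidation in hepatocytes.

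Each array held 59305 spots, of which between 28234 and 38217 were well above background; no spot was saturated. The number of arrays limits the precision. Values are normalised log2 signals of the median spot intensity, so a difference of 1 is a doubling, and levels of different genes are not compared. Quality weights estimated from the data ran from 0.189 to 2.53, the lowest in replicate 1 of *Pparα* hep-/- mice on CTRL (0.189) and replicate 6 of WT mice on CTRL (0.208). The arrays were washed in 2 batches, which each held mice of all 6 groups. The targeted gene was read by 2 probes, which were well above background on all 8 arrays of every group; their place relative to the removed exon was not examined, so their signal is no check of the deletion. The brighter *Ppara* probe lay from 14.65 to 15.24 in WT, from 14.11 to 14.54 in *Pparα* hep-/- and from 13.83 to 14.27 in *Pparα*-/- mice on HFD. On CTRL its values were from 14.03 to 15.07, from 13.26 to 14.28 and from 13.53 to 14.09. The fitted difference from WT on HFD was -0.85 for *Pparα* hep-/- and -1.08 for *Pparα*-/- mice, and -0.68 and -1.29 at the second probe, which on CTRL did not pass for *Pparα* hep-/- mice (-0.10, adjusted p = 0.454). The 6 hepatocyte markers were well above background on every array and their summed log2 signal stayed between 19.98 and 20.34. The brightest markers weigh most in that sum, which can hide a shift of a dimmer one. With HFD in WT mice, 1 of the 6 was higher and 1 lower at an adjusted p of at most 0.05.

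To show what the members share in sequence, promoter windows from RefSeq (GRCm38.p6) of 250 bases before to 50 bases after the start site were searched on both strands for 3 short motifs. These were the core of the sterol regulatory element that SREBP2 binds (TCACNCCAC), the CCAAT box bound by NF-Y and the GC box bound by Sp1 (GGGCGG), both known as partners of SREBP2. Each motif was counted on its own, and matches of different motifs may share bases. Windows were found for 24 of the 28 genes, 15 of them enzymes. The CCAAT box was in 14 of the 15 enzyme genes, against 37.4% of all 32851 windows and 41.1% of all genes. The GC box was also in 14 of 15, against 35.7% of all windows and 38.2% of all genes. The sterol element core in this exact spelling was in 1 of 15, *Hmgcs1*, against 1.24% of all windows and 1.44% of all genes. A match is a description of letters, and no match says only that these letters are not in the window. The stretches just before the start site are shown for a choice of the genes named below, with every match that lies whole within the stretch in capitals. They lie at chr13:119690201-119690350, plus strand (*Hmgcs1*), chr8:64733579-64733688, minus strand (*Msmo1*), chr8:122443423-122443572, minus strand (*Mvd*), chr13:8885516-8885605, plus strand (*Idi1*), chr5:4104698-4104847, minus strand (*Cyp51*), chr19:6067851-6067980, minus strand (*Tm7sf2*) and chr9:42264301-42264390, minus strand (*Sc5d*), and each is written 5′ to 3′ in the direction of the gene.
Hmgcs1: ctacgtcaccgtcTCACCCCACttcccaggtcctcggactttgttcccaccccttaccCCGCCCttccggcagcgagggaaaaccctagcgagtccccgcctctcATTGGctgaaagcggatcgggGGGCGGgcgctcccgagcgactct
Msmo1: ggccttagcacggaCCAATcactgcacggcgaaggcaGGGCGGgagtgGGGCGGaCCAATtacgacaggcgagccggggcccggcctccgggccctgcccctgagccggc
Mvd: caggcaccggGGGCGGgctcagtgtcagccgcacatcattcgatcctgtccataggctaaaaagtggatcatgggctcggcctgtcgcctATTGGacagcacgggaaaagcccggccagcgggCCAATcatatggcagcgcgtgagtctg
Idi1: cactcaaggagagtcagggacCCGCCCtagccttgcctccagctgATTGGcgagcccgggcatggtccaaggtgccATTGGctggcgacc
Cyp51: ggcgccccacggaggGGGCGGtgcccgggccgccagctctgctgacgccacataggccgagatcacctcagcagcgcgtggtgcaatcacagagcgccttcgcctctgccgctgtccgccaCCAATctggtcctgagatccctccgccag
Tm7sf2: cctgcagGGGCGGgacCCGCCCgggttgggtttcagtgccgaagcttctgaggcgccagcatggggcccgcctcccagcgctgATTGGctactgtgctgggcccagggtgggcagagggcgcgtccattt
Sc5d: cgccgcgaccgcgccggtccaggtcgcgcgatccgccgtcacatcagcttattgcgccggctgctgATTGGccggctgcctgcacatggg
*Hmgcs1* thus held all 3 motifs, and *Msmo1* held a pair of CCAAT boxes around a pair of GC boxes. *Sc5d* held a CCAAT box in the stretch shown and 4 GC boxes in its window, none of them whole within that stretch.

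The first question was how HFD moved the pathway in WT liver. Of the 17 enzymes tested, 8 rose and none fell at an adjusted p of at most 0.05, and all 17 had a positive log2 fold change, with a median of 0.69. Over all 26 genes, 9 rose and 1 fell, against 9.32% of all gene names higher and 10.1% lower, whose median change was close to 0. Here and below, a gene rose or fell only if it passed that test. The rise was led by *Msmo1*, the methylsterol oxidase, followed by *Hmgcs1*, which makes HMG-CoA, *Nsdhl*, the sterol decarboxylase, and *Mvk*, mevalonate kinase. The remaining risers among the enzymes were *Idi1*, *Dhcr7*, *Tm7sf2* and *Fdft1*.

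*Msmo1* signal ran from 12.45 to 13.23 (median 12.86) in WT mice on CTRL and from 13.89 to 15.34 (median 14.50) on HFD. The groups did not overlap, and the log2 fold change was 1.70 (standard error 0.23, adjusted p = 1.83e-06), a 3.24-fold rise, with 8 of 8 HFD mice above the CTRL mean. *Hmgcs1* ran from 12.73 to 14.05 (median 13.33) on CTRL and from 13.92 to 15.95 (median 14.94) on HFD. The lowest HFD mouse lay just below the highest CTRL mouse, and the change was 1.60 (standard error 0.31, adjusted p = 0.000228). *Nsdhl* ran from 8.93 to 10.74 (median 9.99) on CTRL and from 10.92 to 11.79 (median 11.42) on HFD, with no overlap and a change of 1.38 (standard error 0.26, adjusted p = 0.000197). *Mvk* ran from 11.11 to 12.32 (median 11.65) on CTRL and from 12.37 to 14.13 (median 12.72) on HFD, again with no overlap, and rose by 1.22 (standard error 0.19, adjusted p = 1.01e-05). *Msmo1*, *Nsdhl* and *Mvk* were the 3 of 26 genes whose mice did not overlap between the diets, against 0.631% of all gene names. Within wash batches the median change of the 17 enzymes was 0.28 in wash batch 1 and 1.04 in wash batch 2. The 4 leading genes kept their direction in both, at 1.41 and 2.02 for *Msmo1* and 1.16 and 1.24 for *Mvk*. Other enzymes differed between the batches: *Sqle*, squalene epoxidase, changed by 0.13 and 1.47 in batches 1 and 2, and *Fdps*, farnesyl diphosphate synthase, by 0.07 and 1.07. Neither passed the test over both.

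**Figure D1:**
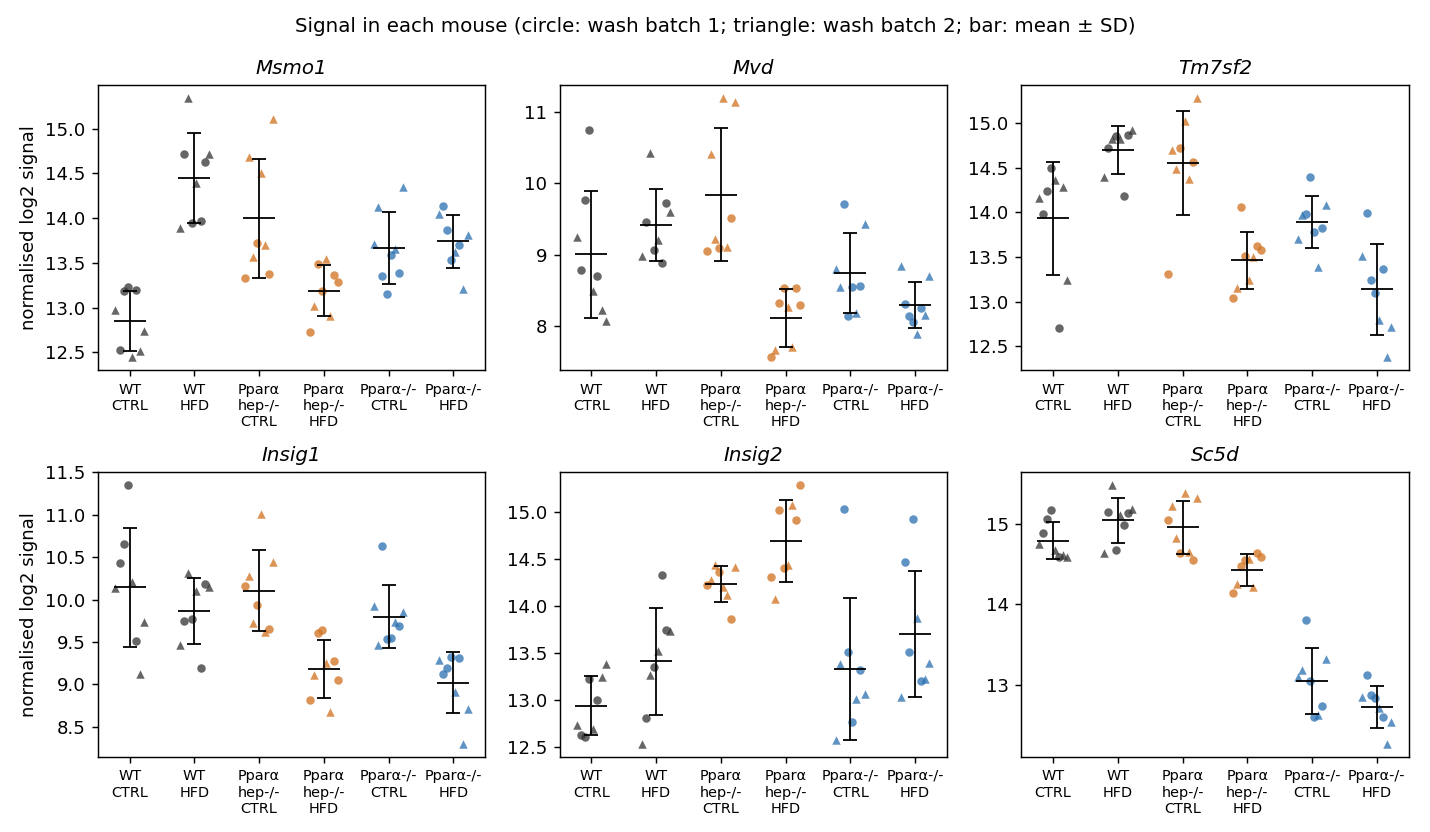
Normalised log2 signal (y axis) of 6 genes in each of the 48 mice, by genotype and diet (x axis; WT, Pparα hep-/- and Pparα-/-, each on CTRL and HFD). Circles are mice of wash batch 1, triangles of wash batch 2, and bars are the mean ± SD of 8 mice. Msmo1 was highest in WT mice on HFD, Mvd was lower in both mutants on HFD than in WT mice on HFD, Insig2 was above WT in Pparα hep-/- mice on both diets, and Sc5d was lowest in Pparα-/- mice on both diets.

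In *Pparα* hep-/- mice the same diet went with lower signal of most of the pathway. Of the 17 enzymes, 15 fell and none rose, and all 17 had a negative log2 fold change, with a median of -0.96. Over all 26 genes, 19 fell and 0 rose, against 11.8% of all gene names lower and 10.7% higher. At an unadjusted p of at most 0.05 in limma, 1 of the 26 was higher and 23 lower. All 11 sterol enzymes fell, and 4 of the 6 enzymes that lead to farnesyl diphosphate. The enzymes that did not pass were *Hmgcs1* at -0.69 (standard error 0.26, adjusted p = 0.0534) and *Mvk* at -0.39 (standard error 0.16, adjusted p = 0.0723), both among the 4 that rose most in WT mice.

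*Mvd*, mevalonate diphosphate decarboxylase, fell most. Its signal ran from 9.05 to 11.19 (median 9.36) on CTRL and from 7.57 to 8.54 (median 8.28) on HFD, with no overlap and a log2 fold change of -1.86 (standard error 0.29, adjusted p = 1.47e-05), or 3.62-fold lower. *Sqle* ran from 12.25 to 13.87 (median 12.71) on CTRL and from 10.38 to 12.43 (median 11.36) on HFD. Here the groups overlapped at their edges, and the change was -1.56 (standard error 0.30, adjusted p = 0.000287). *Pmvk*, phosphomevalonate kinase, ran from 13.60 to 14.98 (median 13.79) on CTRL and from 12.10 to 13.44 (median 12.75) on HFD, without overlap, with a change of -1.35 (standard error 0.21, adjusted p = 1.07e-05). *Cyp51*, the lanosterol demethylase, ran from 11.22 to 13.06 (median 11.62) on CTRL and from 10.19 to 11.33 (median 10.71) on HFD and changed by -1.31 (standard error 0.23, adjusted p = 6.31e-05). *Fdps* changed by nearly as much, -1.31 (standard error 0.27, adjusted p = 0.000686). Together with *Ebp* and *Dhcr7*, *Mvd* and *Pmvk* made up the 4 of 26 genes without overlap between the diets, against 0.667% of all gene names.

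The fall was smaller in wash batch 1, which held 3 CTRL and 5 HFD mice of this genotype, than in wash batch 2, with 5 and 3. The median of the 17 enzymes was -0.48 in wash batch 1 and -1.20 in wash batch 2, and 16 of 17 were below 0 in batch 1, the exception being *Hmgcs1* at 0.28. *Mvd* changed by -1.08 and -2.32 in the 2 batches. In the CTRL group of this genotype 3 mice, all of wash batch 2, stood above the other 5 in the mean over the enzymes, as the plot of the enzyme mean in each mouse shows. Of the Kupffer cell and macrophage markers, 2 of 5 tested rose with HFD in *Pparα* hep-/- mice, with a summed log2 signal of 14.65 to 15.16 on CTRL and 14.74 to 15.75 on HFD, and 2 of 4 endothelial markers rose (12.57 to 12.90 on CTRL, 12.78 to 13.30 on HFD). Their part in the result was not tested. Of the 4 stellate and the 4 cholangiocyte markers, 1 each rose. The hepatocyte markers summed to between 20.11 and 20.34 on CTRL and between 20.20 and 20.34 on HFD. The brightest of them, *Alb*, *Cyp2e1* and *Ttr*, carried that sum, and 1 of the 6 was called lower. The group mean of *Tat* was 14.99 on CTRL and 14.51 on HFD, and that of *Cps1* 14.01 and 13.56.

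With HFD in *Pparα*-/- mice, 2 of the 17 enzymes fell and none rose, with a median log2 fold change of -0.15. Over all 26 genes 6 fell and 0 rose, against 12.6% of all gene names lower and 13.8% higher. The 2 enzymes were *Tm7sf2*, a sterol reductase, and *Ebp*, the sterol isomerase. The others were *Insig1*, *Stard4*, *Mbtps2* and *Dhdds*. At an unadjusted p of at most 0.05 in limma, 1 of the 26 was higher and 7 lower. Without array weights, 3 of the 26 passed, all lower, and within wash batch 1 alone none passed as lower.

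*Tm7sf2* ran from 13.39 to 14.39 (median 13.90) on CTRL and from 12.38 to 13.99 (median 13.17) on HFD, with a change of -0.81 (standard error 0.18, adjusted p = 0.000953). The groups overlapped, and 7 of 8 HFD mice lay below the CTRL mean. *Ebp* ran from 15.69 to 16.12 (median 15.91) on CTRL and from 15.32 to 15.80 (median 15.62) on HFD, a change of -0.32 (standard error 0.08, adjusted p = 0.00178). *Insig1* ran from 9.47 to 10.63 (median 9.71) on CTRL and from 8.30 to 9.32 (median 9.16) on HFD; it was the 1 member without overlap, against 1.64% of all gene names, and changed by -0.80 (standard error 0.20, adjusted p = 0.00313). *Msmo1*, which led in WT mice, changed by 0.03 here, with a 95% confidence interval from -0.39 to 0.45, and *Mvd*, which led in *Pparα* hep-/- mice, by -0.33 (-0.94 to 0.28). Within wash batches the median of the 17 enzymes was 0.03 in wash batch 1 and -0.27 in wash batch 2. In this genotype 4 of 5 Kupffer cell and macrophage markers rose with HFD, with a summed log2 signal of 14.07 to 15.04 on CTRL and 14.80 to 15.86 on HFD, while none was called in WT mice. All 4 stellate cell markers rose too (13.87 to 15.56 on CTRL, 15.26 to 15.79 on HFD), and 2 of 4 endothelial markers (13.00 to 13.55 on CTRL, 13.53 to 13.80 on HFD). Of the 6 hepatocyte markers, 1 was called higher and 2 lower. Their part in the result was not tested.

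**Figure D2:**
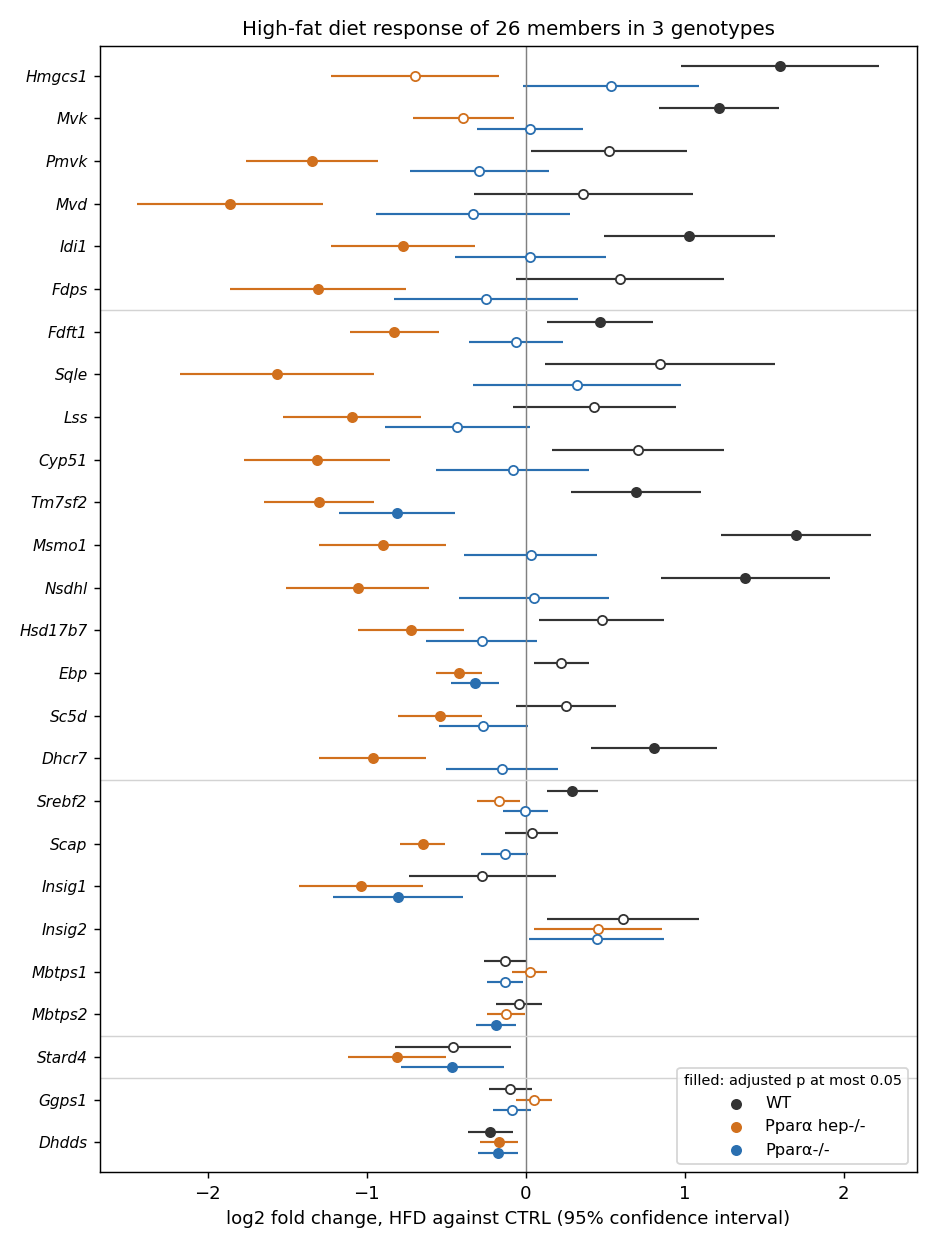
Log2 fold change of HFD against CTRL (x axis; points, with 95% confidence intervals as lines) for 26 genes (y axis) in WT (dark grey), Pparα hep-/- (orange) and Pparα-/- mice (blue), 8 mice per group, or 7 for Sqle in Pparα-/- mice on HFD; filled points passed an adjusted p of 0.05. Grey lines part the roles: enzymes to farnesyl diphosphate, sterol enzymes, SREBP2 control, transport and isoprenoid branch. All 17 enzymes lay above 0 in WT mice and below 0 in Pparα hep-/- mice, and most intervals of Pparα-/- mice held 0.

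The difference between the diet responses was tested itself, as an interaction of genotype and diet. Between *Pparα* hep-/- and WT mice it passed for all 17 enzymes, each with a lower response in *Pparα* hep-/- mice, and over all 26 genes for 19, against 6.3% of all gene names lower and 4.86% higher. The median difference of the enzymes was -1.87. It was largest for *Msmo1* at -2.59 (standard error 0.31, adjusted p = 8.35e-07), followed by *Nsdhl* at -2.44 (standard error 0.35, adjusted p = 2.19e-05) and *Sqle* at -2.41 (standard error 0.47, adjusted p = 0.00102), and smallest for *Ebp* at -0.64 (standard error 0.11, adjusted p = 0.000257). All 17 differences were negative within each wash batch, with medians of -0.88 in wash batch 1 and -2.45 in wash batch 2.

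Between *Pparα*-/- and WT mice the interaction passed for 7 enzymes, again all lower: *Mvk*, *Tm7sf2*, *Msmo1*, *Nsdhl*, *Hsd17b7*, *Ebp* and *Dhcr7*. None of the other members passed, against 7.77% of all gene names lower and 7.75% higher. The count of 7 was smaller within each wash batch alone and larger with only the groups compared. The median of the 17 enzymes was -0.84, at -0.44 in wash batch 1 and -1.33 in wash batch 2, and 15 of the 17 were below 0 in batch 1. Between both mutants, the response was higher in *Pparα*-/- than in *Pparα* hep-/- mice for 8 genes and lower for 0, against 2.55% and 1.38% of all gene names. The 8 were *Pmvk*, *Mvd*, *Fdft1*, *Sqle*, *Cyp51*, *Nsdhl*, *Dhcr7* and *Scap*, led by *Sqle* at 1.89 (standard error 0.45, adjusted p = 0.0119), which rests on 7 *Pparα*-/- mice on HFD, since 1 had no usable spot. By the count of members this last comparison was the one most open to the weighting. Without array weights 0 of the 26 genes passed in limma. At an unadjusted p of at most 0.05, 11 did, all in the same direction. Of all 33323 probes, 110 passed without weights and 1139 with them. For the interaction of *Pparα* hep-/- against WT mice these counts were 298 and 3472. The 3 interactions share groups and are not independent of each other.

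**Figure D3:**
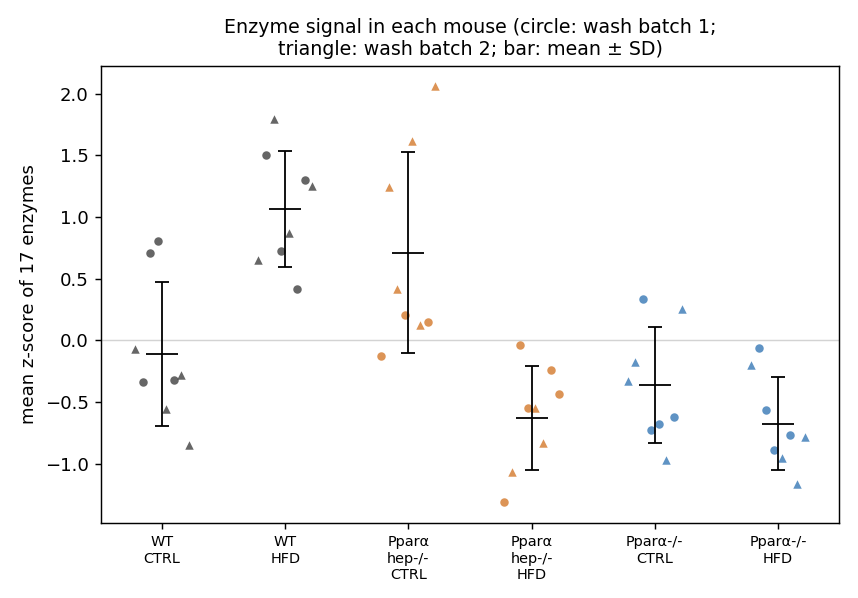
Mean z-score of the 17 enzymes (y axis; each gene scaled over 48 mice) in each mouse, by genotype and diet (x axis). Circles are mice of wash batch 1, triangles of wash batch 2, bars the mean ± SD of 8 mice. WT mice on HFD were at 0.42 or above, and Pparα hep-/- mice on HFD all below 0.

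A mean z-score over the 17 enzymes is given for each mouse, as a description without a test. It ran from -0.85 to 0.81 (median -0.30) in WT mice on CTRL and from 0.42 to 1.80 (median 1.06) on HFD. In *Pparα* hep-/- mice it ran from -0.12 to 2.06 (median 0.31) on CTRL and from -1.31 to -0.04 (median -0.55) on HFD, and in *Pparα*-/- mice from -0.97 to 0.33 (median -0.48) and from -1.17 to -0.06 (median -0.78). The diets overlapped within each genotype. WT mice on HFD lay above every mutant mouse on HFD, while both mutant HFD groups covered much the same range. The widest group was *Pparα* hep-/- on CTRL.

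The control genes of SREBP2 did not follow the enzymes as one. *Srebf2* itself ran from 10.08 to 10.62 (median 10.20) in WT mice on CTRL and from 10.26 to 10.90 (median 10.52) on HFD. It rose by 0.29 (standard error 0.08, adjusted p = 0.00659) in WT mice and changed by -0.17 (standard error 0.07, adjusted p = 0.0645) in *Pparα* hep-/- and -0.003 (standard error 0.07, adjusted p = 0.978) in *Pparα*-/- mice. The interaction of *Pparα* hep-/- against WT was -0.46 (standard error 0.10, adjusted p = 0.00345). A second *Srebf2* probe gave 0.55 (adjusted p = 0.00128) in WT mice and 0.09 and 0.12, neither past the test, in *Pparα* hep-/- and *Pparα*-/- mice.

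*Scap*, the escort protein, ran from 13.05 to 14.02 (median 13.75) in *Pparα* hep-/- mice on CTRL and from 12.93 to 13.43 (median 13.20) on HFD, a change of -0.65 on the log2 scale (standard error 0.07, adjusted p = 1.37e-08). It changed by 0.04 (standard error 0.08, adjusted p = 0.811) in WT mice and -0.13 (standard error 0.07, adjusted p = 0.188) in *Pparα*-/- mice, and both interactions with *Pparα* hep-/- passed. On HFD the *Pparα* hep-/- mice lay below all 8 *Pparα*-/- mice, which ran from 13.51 to 13.84 (median 13.62).

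*Insig1*, which retains the SCAP-SREBP complex and is itself a target of SREBP2, ran from 9.62 to 11.01 (median 10.05) in *Pparα* hep-/- mice on CTRL and from 8.68 to 9.64 (median 9.18) on HFD. It changed by -1.04 (standard error 0.19, adjusted p = 0.000159), against -0.27 (standard error 0.23, adjusted p = 0.464) in WT mice, where wash batches gave -0.74 and 0.33. The interactions did not pass. *Insig2*, the second retention protein, behaved otherwise. It ran from 12.61 to 13.39 (median 12.87) in WT and from 13.86 to 14.44 (median 14.25) in *Pparα* hep-/- mice on CTRL, without overlap, and from 12.54 to 14.33 (median 13.43) and from 14.08 to 15.29 (median 14.68) on HFD. *Pparα* hep-/- mice were higher by 1.39 (standard error 0.23, adjusted p = 1.40e-05) on CTRL and 1.23 (standard error 0.21, adjusted p = 1.87e-05) on HFD, with wash batch values of 1.29 and 1.32 on CTRL. *Pparα*-/- mice, at 0.29 on CTRL and 0.12 on HFD against WT, did not pass and were lower than *Pparα* hep-/- mice on both diets, with differences of -1.10 and -1.11. No HFD response of *Insig2* passed in any genotype (adjusted p = 0.0644, 0.101 and 0.115). The protease genes moved little: the 3 HFD responses of *Mbtps1* lay between -0.13 and 0.02, with no call, and those of *Mbtps2* between -0.19 and -0.04, with a call in *Pparα*-/- mice that the 2 other tested probes did not share (-0.13 and 0.02).

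*Stard4*, which carries cholesterol between membranes, ran from 11.13 to 12.77 (median 12.35), from 11.11 to 12.13 (median 11.53) and from 11.51 to 12.07 (median 11.77) on CTRL in WT, *Pparα* hep-/- and *Pparα*-/- mice. On HFD it ran from 10.99 to 12.27 (median 11.66), from 10.52 to 11.31 (median 10.70) and from 10.97 to 11.74 (median 11.37). The fold change of HFD was negative in all 3 genotypes, at -0.46 (standard error 0.18, adjusted p = 0.0728), -0.81 (standard error 0.15, adjusted p = 0.0002) and -0.46 (standard error 0.16, adjusted p = 0.0301). Its value in WT mice, which did not pass, had the opposite sign to the enzymes, at -0.89 and -0.03 in wash batches 1 and 2. A dimmer *Stard4* probe gave -0.59 in WT and -0.59 in *Pparα* hep-/- mice, both past the test, and -0.13 (adjusted p = 0.53) in *Pparα*-/- mice, where the call thus rests on the brightest probe. In the isoprenoid branch, *Dhdds*, a subunit of the enzyme that makes the dolichol chain, fell in each genotype by a small amount (-0.22, -0.17 and -0.18). A second *Dhdds* probe, at -0.01, 0.04 and -0.18, did not pass in any of them. *Ggps1*, geranylgeranyl diphosphate synthase, had no call for diet at its brightest probe, while 3 of its 5 other probes passed with small negative changes in WT mice (-0.32, -0.18 and -0.22). In *Pparα* hep-/- mice 2 of these 5 passed (-0.17 and -0.14), and in *Pparα*-/- mice 2 (-0.12 and -0.14).

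Genotype was then compared on each diet. On HFD, all 17 enzymes were lower than in WT mice in *Pparα* hep-/- mice and all 17 in *Pparα*-/- mice, with medians of -1.15 and -1.18. Over all 26 genes, 21 were lower and 1 higher in *Pparα* hep-/- mice, against 14% and 14.6% of all gene names, and 21 lower and 1 higher in *Pparα*-/- mice, against 23.7% and 24.1%. Both comparisons share the WT mice. All 17 enzymes lay below 0 in both wash batches, with medians of -1.04 in wash batch 1 and -1.33 in wash batch 2 for *Pparα* hep-/- and -1.23 in wash batch 1 and -1.29 in wash batch 2 for *Pparα*-/- mice. *Hmgcs1* was lowest against WT on HFD in *Pparα* hep-/- mice, at -1.65 (standard error 0.27, adjusted p = 1.28e-05), where it ran from 12.43 to 13.84 (median 13.30), below every WT mouse. *Cyp51* followed at -1.57 (standard error 0.24, adjusted p = 2.56e-06); it ran from 11.51 to 12.82 (median 12.22) in WT mice and from 10.19 to 11.33 (median 10.71) in *Pparα* hep-/- mice on HFD. In *Pparα*-/- mice *Hmgcs1* was at -2.05 (standard error 0.27, adjusted p = 2.58e-08), running from 12.25 to 13.50 (median 12.98). Markers of other liver cells moved with genotype on HFD as well. Against WT, 3 of 5 Kupffer cell and macrophage markers, 3 of 4 endothelial and 3 of 4 stellate cell markers were higher in *Pparα* hep-/- mice, and 4 of 5, 3 of 4 and 4 of 4 in *Pparα*-/- mice. Their summed log2 signals in WT mice on HFD ran from 13.52 to 15.97, from 12.35 to 13.07 and from 13.79 to 16.06, beside the ranges given above for Kupffer and endothelial markers in both mutants and for stellate markers in *Pparα*-/- mice, and 14.83 to 15.86 for stellate markers in *Pparα* hep-/- mice. Of the 6 hepatocyte markers, 1 was lower in *Pparα* hep-/- and 2 in *Pparα*-/- mice, and none was higher. The part of these cells in the enzyme differences was not tested.

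On CTRL the mutants parted. There, 1 of 5 Kupffer cell and macrophage, 2 of 4 endothelial and 1 of 4 stellate cell markers were higher than in WT in each mutant, and of the 6 hepatocyte markers 1 was higher and 2 were lower in each. In *Pparα* hep-/- mice 9 of 26 genes were higher than in WT mice and 1 lower, against 12.3% and 12.9% of all gene names; 7 of the 9 were enzymes, with *Sqle* at 1.28 (standard error 0.35, adjusted p = 0.0052) and *Msmo1* at 1.23 (standard error 0.23, adjusted p = 7.22e-05) in front. *Sqle* ran from 10.05 to 12.96 (median 11.59) in WT and from 12.25 to 13.87 (median 12.71) in *Pparα* hep-/- mice. The batches differed: the median of the 17 enzymes was -0.12 in wash batch 1 and 1.02 in wash batch 2, and *Sqle* stood at 0.05 and 2.09 in batches 1 and 2. With the fit limited to the groups compared, 4 of 26 genes passed. In *Pparα*-/- mice 4 genes were higher than in WT and 7 lower, against 16.9% and 18.4% of all gene names; *Mvk* and *Msmo1* were among the higher and *Hmgcs1*, *Pmvk*, *Fdps*, *Cyp51* and *Sc5d* among the lower. Here too the batches differed: the median of the 17 enzymes was -0.52 in wash batch 1 and -0.00 in wash batch 2, with 15 and 9 of 17 below 0. Within wash batch 2 alone, 3 of the 26 genes passed as higher and 1 as lower, and within wash batch 1, 1 and 11. *Fdps* ran from 13.81 to 15.75 (median 14.69) in WT and from 13.07 to 15.26 (median 13.93) in *Pparα*-/- mice, a difference of -1.11 (standard error 0.33, adjusted p = 0.0069). Between the mutants on CTRL, *Pparα*-/- mice had 2 members higher and 17 lower, against 13.2% and 13.4% of all gene names, with an enzyme median of -0.91; within wash batches the median was -0.56 in wash batch 1 and -1.10 in wash batch 2. On HFD, 5 were higher and 5 lower, against 16.9% and 15%, and the enzyme median was 0.04. Without array weights that last comparison called 5 of 26 genes in all. Cell markers differed between the mutants too. On CTRL, 1 of 4 endothelial markers was higher in *Pparα*-/- mice, and 1 of 6 hepatocyte and 1 of 4 stellate cell markers were lower. On HFD, 1 of 5 Kupffer cell and macrophage, 2 of 4 endothelial and 1 of 4 stellate cell markers were higher in *Pparα*-/- mice, and 2 of 4 cholangiocyte markers were lower. Their part in these differences was not tested.

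**Figure D4:**
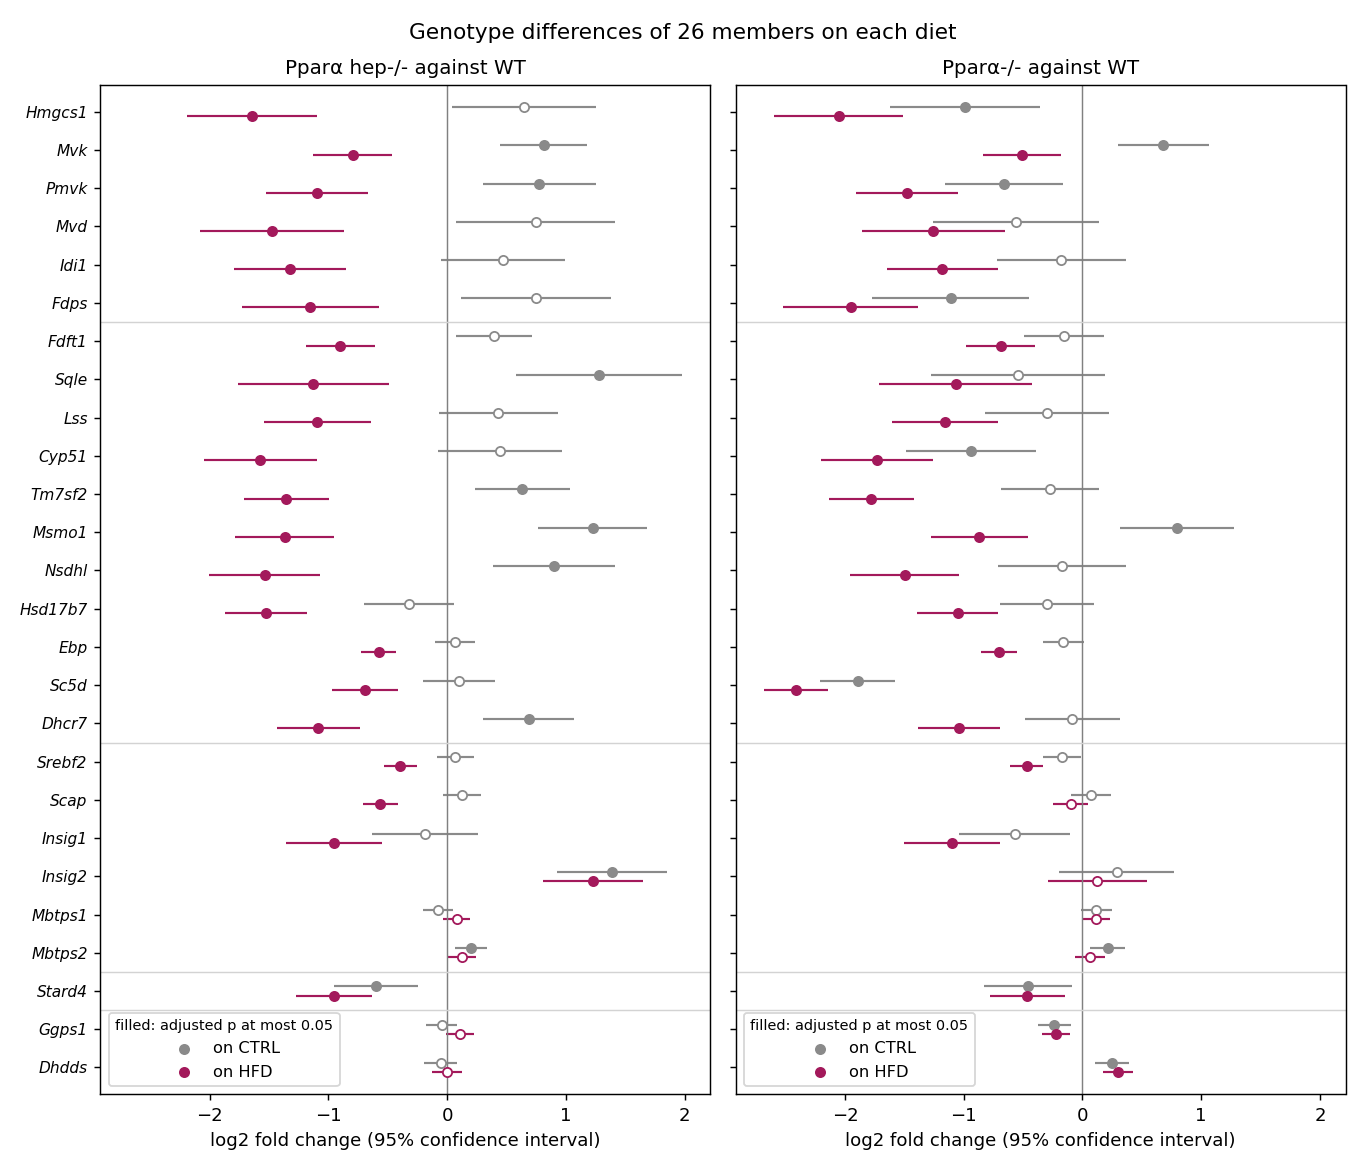
Log2 fold change against WT (x axis; points, with 95% confidence intervals as lines) of 26 genes (y axis) in Pparα hep-/- mice (left) and Pparα-/- mice (right), on CTRL (grey) and HFD (magenta), 8 mice per group, or 7 for Sqle in Pparα-/- mice on HFD; filled points passed an adjusted p of 0.05. On HFD all 17 enzymes lay below 0 in both mutants, and Sc5d in Pparα-/- mice lay at -1.89 on CTRL and -2.41 on HFD.

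*Sc5d*, the sterol desaturase of a late step, differed more from the other genotypes than between diets in *Pparα*-/- mice, as *Insig2* did in *Pparα* hep-/- mice. It ran from 14.59 to 15.16 (median 14.71) in WT, from 14.54 to 15.38 (median 14.93) in *Pparα* hep-/- and from 12.61 to 13.81 (median 13.08) in *Pparα*-/- mice on CTRL. On HFD it ran from 14.64 to 15.48 (median 15.11), from 14.14 to 14.63 (median 14.51) and from 12.28 to 13.13 (median 12.78). No *Pparα*-/- mouse reached any mouse of the other genotypes on either diet. The difference from WT was -1.89 (standard error 0.16, adjusted p = 1.77e-13) on CTRL and -2.41 (standard error 0.14, adjusted p = 2.08e-19) on HFD, or 3.72-fold and 5.32-fold lower, and that from *Pparα* hep-/- mice -2.00 and -1.72. A second *Sc5d* probe gave -1.44 for *Pparα*-/- mice against WT on CTRL. For *Pparα* hep-/- mice it gave -0.40, where the brightest probe gave 0.10. On the array, both probes lie on chromosome 9 (mm9), at 42062857 to 42062916 and 42060087 to 42060146, in the files' coordinates; an annotation of that build was not used here.

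The enzymes also varied together among mice of one group. After group and wash batch means were taken out, the correlation between 2 enzymes over 47 mice had a median of 0.67 over 136 pairs, from 0.07 to 0.91; the arrays share depth and processing, and this is a description. *Cyp51* followed the mean of the other enzymes most closely (r = 0.92), with *Fdps* at 0.91 and *Lss*, lanosterol synthase, at 0.90. *Ebp* at 0.57 and *Mvk* at 0.54 were the loosest of the enzymes. Outside the enzymes *Insig1* had r = 0.71, *Srebf2* and *Stard4* 0.56 and *Scap* 0.39. *Insig2* (0.16), *Dhdds* (0.02), *Mbtps1* (-0.06), *Ggps1* (-0.11) and *Mbtps2* (-0.19) showed little or none. Over all 48 arrays, 12 of the 20 gene names with the highest correlation to the enzyme mean were members, all of them enzymes that are part of that mean, so their rank is partly built in. *Sqle*, with a missing value, was not ranked. The closest named gene outside them was *Rdh11*, a retinol dehydrogenase, with r = 0.86; the 3 non-members above it (r from 0.91 to 0.92) are probes without a gene symbol.

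Several genes had more than 1 tested probe, 19 of the 26, and these did not always move by the same amount. Those of *Msmo1* gave 1.70, 1.76 and 1.01 for HFD in WT mice, the last from a dim probe. Those of *Nsdhl* gave 1.38 and 0.53 in WT mice and -1.06 and -0.27 in *Pparα* hep-/- mice, again with the dimmer probe closer to 0 and not passing. For *Cyp51* the second probe passed in WT mice (0.67, adjusted p = 0.0329), where the brightest, at 0.71, did not. The same held for *Hsd17b7* (0.60, adjusted p = 0.0242, brightest 0.48) and *Ebp* (0.33, adjusted p = 0.00713, brightest 0.22). In *Pparα* hep-/- mice the dim *Msmo1* probe did not pass (-0.21, adjusted p = 0.396).

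Genes that border on the pathway were read from further lists, whose counts stand beside the shares of all gene names higher and lower: 9.32% and 10.1% in WT, 10.7% and 11.8% in *Pparα* hep-/- and 13.8% and 12.6% in *Pparα*-/- mice. These lists are small, so a share rests on few genes. Of 7 tested genes linked to SREBP2 outside the 28, 2 rose and 1 fell with HFD in WT mice, 0 rose and 4 fell in *Pparα* hep-/- mice and 0 rose and 1 fell in *Pparα*-/- mice. *Rdh11* at -1.65 and *Acss2*, a cytosolic acetyl-CoA synthetase, at -1.49 fell most in *Pparα* hep-/- mice. *Mmab*, of cobalamin metabolism, rose in WT mice (0.69) and was the gene that fell in *Pparα*-/- mice (-0.48). The lowest change of the 7 in WT mice was -1.08. Of 15 tested genes of sterol-regulated protein turnover in the endoplasmic reticulum, 1 rose and 3 fell in WT, 1 rose and 3 fell in *Pparα* hep-/- and 0 rose and 7 fell in *Pparα*-/- mice. The ubiquitin ligase genes *Rnf145* and *Syvn1* stood at -1.31 and -0.93 in WT mice, and *Rnf145* at -0.50 in *Pparα* hep-/- mice. Of 15 further genes of the isoprenoid branch, 2 rose and 1 fell in WT, 3 rose and 1 fell in *Pparα* hep-/- and 2 rose and 3 fell in *Pparα*-/- mice; *Srd5a3*, the polyprenol reductase of dolichol synthesis, rose in both mutants (*Pparα* hep-/- 0.61, *Pparα*-/- 0.53). Of 13 genes of cholesterol esters and intracellular transport, 1 rose and 3 fell in WT mice. In *Pparα* hep-/- mice 1 rose and 1 fell, and in *Pparα*-/- mice 4 rose and 1 fell. *Soat1*, a cholesterol acyltransferase, was higher on HFD than on CTRL in both mutants (*Pparα* hep-/- 0.50, *Pparα*-/- 0.38). The median changes of these last 3 lists lay between -0.11 and 0.09 in every HFD response.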

How the data were processed

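Liver RNA of 48 mice was hybridised, 1 mouse per one-colour Agilent array. The intensities deposited by the authors are the output of Feature Extraction 10.10.1.1; the spot values used are median pixel intensities, neither background subtracted nor normalised. The log2 table the authors deposited, which per the methods was filtered, corrected for wash batch and quantile normalised, was used as an alternative. Feature Extraction is named in the submitters' processing notes.

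Spots marked as outliers were left out, intensities were taken to log2, spots of a probe were averaged, and a probe entered if some group had 4 or more of its 8 arrays well above background (33323 probes; 195 missing values, fitted by their pattern of missing arrays; for *Sqle* 1 *Pparα*-/- mouse on HFD was dropped). Values were quantile normalised. The linear model (limma 3.58.1, R 4.3.3) held the 6 groups and the wash batch, with arrays weighted by quality. Benjamini-Hochberg adjustment ran over all probes for each contrast, and the brightest tested probe decided the call of a gene (adjusted p up to 0.05). The fit was tested on simulated data. Full values are given for the 4 called genes of largest change in each HFD response, up to 2 in each genotype comparison, and the control and transport genes. Of the non-members, at most 2 per direction were named. Of 5 non-members most like the enzymes, 4 are given and 1 is not reported here. The members, lists and roles were chosen with earlier results of these data known. Replicate numbers of the labels name mice and do not pair them across groups. In all, 16 alternatives were tried.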

Additional observations from a re-analysis of the deposited data

Results flagged for a closer look

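A single mouse stood apart from the other 7 of its group, by the gap to its nearest neighbour against the range of the group, in 7 of 156 groups tested; chance gives about 1 in 20. In replicate 3 of *Pparα*-/- mice on CTRL this held for *Pmvk* (14.3, group median 12.61), *Insig1* (10.63, median 9.71) and *Insig2* (15.03, median 13.19). In replicate 1 of *Pparα* hep-/- mice on CTRL, the array of lowest weight, it held for *Tm7sf2* (13.31, median 14.63) and *Scap* (13.05, median 13.75). *Ebp* was low in replicate 6 of WT mice on HFD (15.78, median 16.23) and high in replicate 5 of *Pparα* hep-/- mice on CTRL (16.53, median 16.00). What set these mice apart was not tested.

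The diet response differed between genotypes, in limma (adjusted p up to 0.05), in 34 of 78 tests. The HFD response was lower in *Pparα* hep-/- mice, against WT and as an interaction of genotype and diet on the log2 scale, for 19 genes: *Hmgcs1* (-2.294), *Mvk* (-1.607), *Pmvk* (-1.871), *Mvd* (-2.219), *Idi1* (-1.798), *Fdps* (-1.9), *Fdft1* (-1.293), *Sqle* (-2.407), *Lss* (-1.524), *Cyp51* (-2.018), *Tm7sf2* (-1.989), *Msmo1* (-2.595), *Nsdhl* (-2.437), *Hsd17b7* (-1.2), *Ebp* (-0.643), *Sc5d* (-0.792), *Dhcr7* (-1.771), *Srebf2* (-0.464), *Scap* (-0.686). It was lower in *Pparα*-/- than in WT mice for 7 genes: *Mvk* (-1.188), *Tm7sf2* (-1.501), *Msmo1* (-1.665), *Nsdhl* (-1.329), *Hsd17b7* (-0.755), *Ebp* (-0.543), *Dhcr7* (-0.958). It was higher in *Pparα*-/- than in *Pparα* hep-/- mice for 8 genes: *Pmvk* (1.054), *Mvd* (1.525), *Fdft1* (0.764), *Sqle* (1.885), *Cyp51* (1.23), *Nsdhl* (1.108), *Dhcr7* (0.813), *Scap* (0.515). The comparisons share groups.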

How the results depend on the processing

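Counts below are members called, of 26, in each comparison. All 12 counts stayed within 1.5 times with the 75th percentile scaling, normexp, the authors' log2 table, the stricter dim filter, no wash term, the slide block, the mean over probes and, both chosen after seeing the data, without the 2 arrays of lowest weight and without replicate 3 of *Pparα*-/- mice on CTRL. For the HFD response in *Pparα*-/- mice (main count 6), 3 members passed without array weights, without a dim filter, within wash batch 2 or at an adjusted p of at most 0.01, and 1, higher, within wash batch 1. The interaction of *Pparα*-/- against *Pparα* hep-/- mice (8) gave 0 without weights, 1 without a dim filter, 3 with the replicate block, 4 with only the groups compared, 0 within either wash batch and 1 at 0.01; at an unadjusted p of at most 0.05 in limma, 11 passed without weights and 6 and 12 within wash batches 1 and 2. That of *Pparα*-/- against WT mice (7) gave 11 with the replicate block, 13 with only the groups compared, and 0 and 4 within wash batches 1 and 2, where 6 and 17 had such an unadjusted p. That of *Pparα* hep-/- against WT mice (19) gave 6 within wash batch 1. On CTRL, *Pparα*-/- against WT mice (11) gave 7 without weights, 4 within wash batch 2 and 7 at 0.01; *Pparα* hep-/- against WT mice (10) gave 4 with only the groups compared and 5 within wash batch 1; and the mutants against each other (19) gave 3 within wash batch 1. On HFD the mutants (10) gave 5 without weights, within wash batch 1 and at 0.01. The HFD response in WT mice (10) gave 5 and 4 within wash batches 1 and 2, and that in *Pparα* hep-/- mice (19) gave 4 within wash batch 1. A wash batch holds 3 to 5 mice of a group, so fewer arrays are tested there. Of 163 member calls, 1 changed sign: *Pmvk* in *Pparα* hep-/- against WT mice on CTRL stood at -0.086 within wash batch 1. The cause of the other changes was not tested. The replicate block, which ties mice that share only a number (correlations of same-numbered mice from -0.45 to 0.69), kept 153 of 163 calls.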
